A study of Homo sapiens with 102 samples.

Results

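Imatinib given without a second drug was compared with solvent in K562 cells, an established human chronic myeloid leukaemia line whose growth depends on the BCR-ABL fusion kinase. The comparison used 18 of the 102 libraries of the series, chosen by their labels. In 12 libraries imatinib was paired with DMSO, the solvent, and in 6 libraries (DMSO_DMSO) the solvent held both positions of the pair. They came from Combi-Seq, in which a droplet holds a cell, a pair of compounds and the barcode fragments that name them, so that a library is the pool of all reads with one joined barcode from one run. The label order Imatinib_DMSO (first-listed) and the order DMSO_Imatinib (second-listed) each had 3 libraries in the dT screen and 3 in the Bio screen, which differ in their barcoding scheme, and DMSO_DMSO had 3 per screen. All droplets were incubated for 12 h. Doses were not used here, and which label position belonged to which injection source was not settled. The runs of a screen were repeats of the whole process with one cell line. The main fits and the permutation tests compare libraries within runs, so a shift shared by a whole run does not enter their p-values. These p-values measure the spread of libraries that remains, which may be technical. Where both label orders count as imatinib, differences between the orders are part of that spread. In such pools fewer cells and less RNA per cell cannot be told apart. The study gives each drug pair its own pair of barcode fragments. Within a screen, a label order and its barcodes therefore cannot be told apart either.

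Imatinib blocks the ATP pocket of the ABL kinase. In K562 cells BCR-ABL feeds the RAS-ERK, PI3K-AKT and STAT5 routes, which keep MYC, cyclins and survival genes active. The line has an erythroid character with fetal globin, and imatinib is known in such cells for stopping growth and favouring erythroid genes.

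All 18 libraries had at least 1000 detected genes (genes with at least 1 read count), and none was dropped. Total counts ranged from 127042 to 310265 in dT and from 81806 to 298484 in Bio, and detected genes from 1909 to 3515 and from 1030 to 2098. The DMSO_DMSO libraries held fewer counts on average, with 149523 ± 44126 counts (SD, n = 6) against 226443 ± 75712 (SD, n = 12) for imatinib. On the log2 scale the difference was 0.566 (exact two-sided permutation test within runs, 729 reassignments, p = 0.0562, adjusted over 3 measures 0.0844, where 0.00137 is the smallest possible p). Detected genes differed by 149.6 (exact permutation p = 0.583, adjusted 0.583). The share of counts from mitochondrially encoded genes was 4.83% ± 1.30 (SD, n = 12) with imatinib and 5.81% ± 1.45 (SD, n = 6) with DMSO (exact permutation p = 0.0261, adjusted 0.0782). None of the 3 measures passed 0.05 after adjustment. In dT the share was 3.72% to 4.28% in first-listed, 4.51% to 5.92% in second-listed and 5.70% to 7.33% in DMSO_DMSO libraries, while the Bio groups overlapped.

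**Figure D1:**
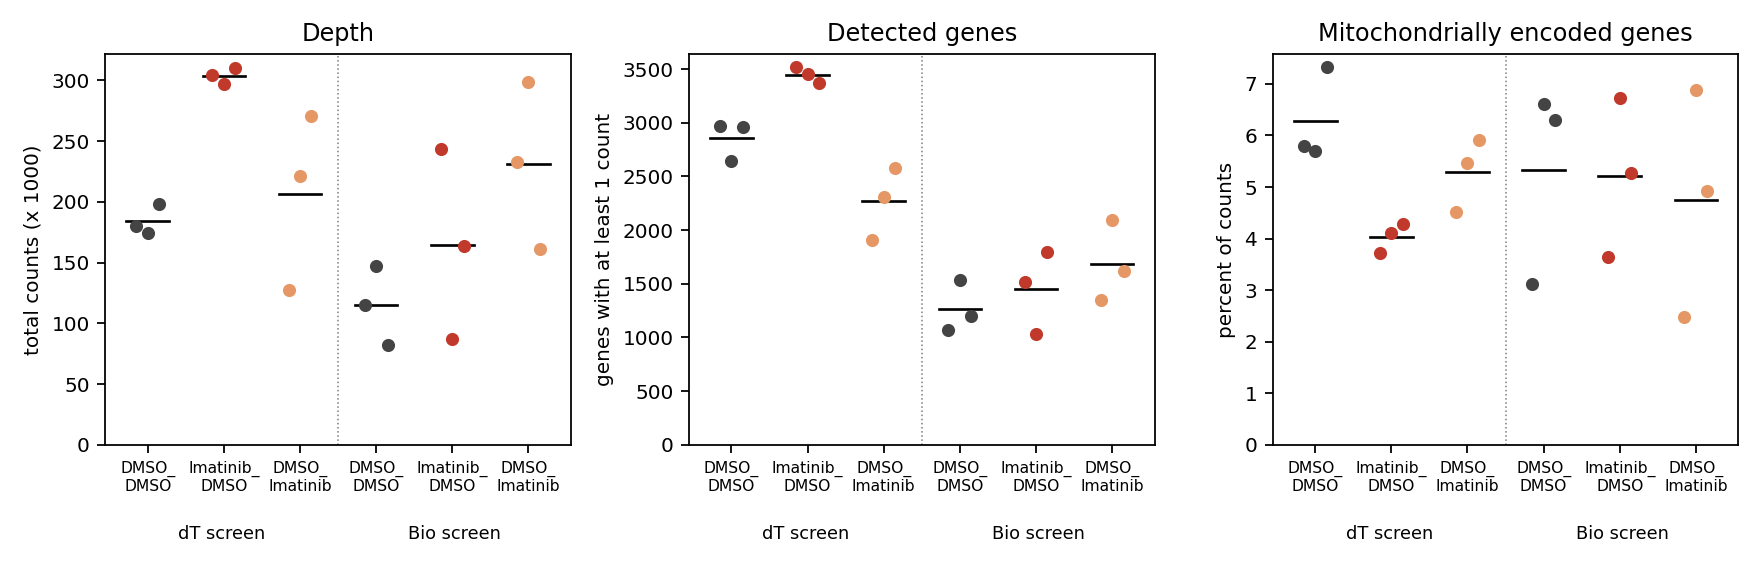
Total counts divided by 1000 (left), genes with at least 1 count (middle) and percent of counts from mitochondrially encoded genes (right) for each of the 18 libraries, by label and screen; points are runs and lines are group means. The 3 dT libraries with imatinib first-listed had the highest counts of the dT screen (296762 to 310265) and mitochondrial shares of 3.72% to 4.28%, below all 3 dT DMSO_DMSO libraries (5.70% to 7.33%).

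Erythroid markers of K562 were present in part. HBG2 (fetal gamma-globin) was counted in all 18 libraries, at 14397 to 37743 counts per 1000000 counts of the library (CPM) in DMSO_DMSO and 9083 to 46592 CPM in imatinib libraries. HBZ (embryonic zeta-globin) was counted in 17 libraries and GATA1, the erythroid master factor, in 9. LMO2, an erythroid cofactor, had no count in any library and the transferrin receptor gene TFRC had 3 counts in 1 library. The 12 marker genes of K562 together took 1.31% to 4.82% of the counts in dT imatinib, 2.95% to 3.88% in dT DMSO_DMSO, 0.912% to 4.42% in Bio imatinib and 1.61% to 2.39% in Bio DMSO_DMSO libraries. Of 14 markers of other cells 10 were in the table and 3 had a count, among them CD3D and EPCAM in 2 libraries each. Their sum was at most 0.0603% of a library, and CD3E, CD79A, MS4A1, LYZ, COL1A1, COL1A2 and PECAM1 were at 0 throughout.

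In all, 3 genes had lower levels in every imatinib library than in any DMSO_DMSO library of either screen, and 0 genes were higher in all. These were PYCR1, which makes proline in mitochondria, TIMM17B, a subunit of the channel that imports proteins across the mitochondrial inner membrane, and ECPAS, an adaptor of the proteasome. They are 3 of 11405 genes with a count in any of the libraries, or 0.0263% of them. TIMM17B and ECPAS lay outside the rule for named genes and were chosen after their values were seen. PYCR1 was in the rule by name and through a list. The lists and tests were chosen with earlier results of these data known, so its naming is not independent of these data.

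PYCR1 (ENSG00000183010, chromosome 17, 81932384 to 81942412, minus strand, GRCh38) showed the clearest separation of imatinib from DMSO_DMSO. In DMSO_DMSO it stood at 1319.5, 4072 and 1810.2 CPM in runs 1 to 3 of dT and at 6098, 1894 and 1980.3 CPM in runs 1 to 3 of Bio. With imatinib it had no count in 10 of 12 libraries. The remaining values were 3.29 CPM (1 count) in run 1 of dT and 748.0 CPM (182 counts) in run 1 of Bio, both with imatinib first-listed. The means were 2862 ± 1851 CPM (SD, n = 6) and 62.6 ± 215.8 CPM (SD, n = 12), and the imatinib mean was lower in 6 of 6 runs. In the 6 separate DMSO controls of the series, which the main comparisons do not use, PYCR1 was at 210.4 to 951.3 CPM, below every DMSO_DMSO library. The imatinib library at 748.0 CPM fell within that range.

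The gene had a count in 8 of the 18 libraries and so failed the filter, which asks for a count in at least 50% of the libraries, and it was not tested in the pooled comparison. Under filterByExpr, the default low-count filter of edgeR, PYCR1 had a fitted difference of -10.56 ± 1.66 (SE) on the log2 scale, with an adjusted p of 0.000727 from the quasi-likelihood test. It was the 1 gene called among 1923, or 0.052%. A gene enters this fit by its counts in the group where it is high, here DMSO_DMSO, so this value and its p are a description of PYCR1 and lend it no support. A fitted value of this size also depends on the prior count of the fit. In dT alone the same filter, with the same limit, gave -11.17 ± 1.78 (adjusted p = 0.000575). In Bio alone it gave -9.71 ± 3.24 (adjusted p = 0.601), a screen with the one imatinib library at 748.0 CPM.

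TIMM17B (ENSG00000126768, chromosome X, 48893447 to 48898143, minus strand) was at 149.7, 464.5 and 468.9 CPM in dT and at 34.8, 1358 and 158.9 CPM in Bio DMSO_DMSO libraries. It was at 0 in 9 of 12 imatinib libraries and at 30.3, 31.5 and 31.7 CPM in the other 3, all from dT. The fitted difference was -7.19 ± 1.49 (SE) with an adjusted p of 0.0562, which missed the threshold of 0.05, and DESeq2 called it (-7.21, adjusted p = 0.000255). It was counted in 9 of 18 libraries and reached the filter with all 6 of DMSO_DMSO, so these values are a description. In the 6 separate DMSO controls TIMM17B had a count in 4, at 0 to 100.2 CPM, and so overlapped with imatinib.

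ECPAS (ENSG00000136813, chromosome 9, 111360692 to 111484745, minus strand) was a low-count gene. In DMSO_DMSO it had 4, 7 and 3 counts in dT and 5, 157 and 2 in Bio, or 22.2, 40.1, 15.1, 43.5, 1065.7 and 24.4 CPM. A single imatinib library had any, with 3 counts (9.86 CPM) in run 1 of dT. It was counted in 7 libraries and was not tested in the pooled comparison.

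**Figure D2:**
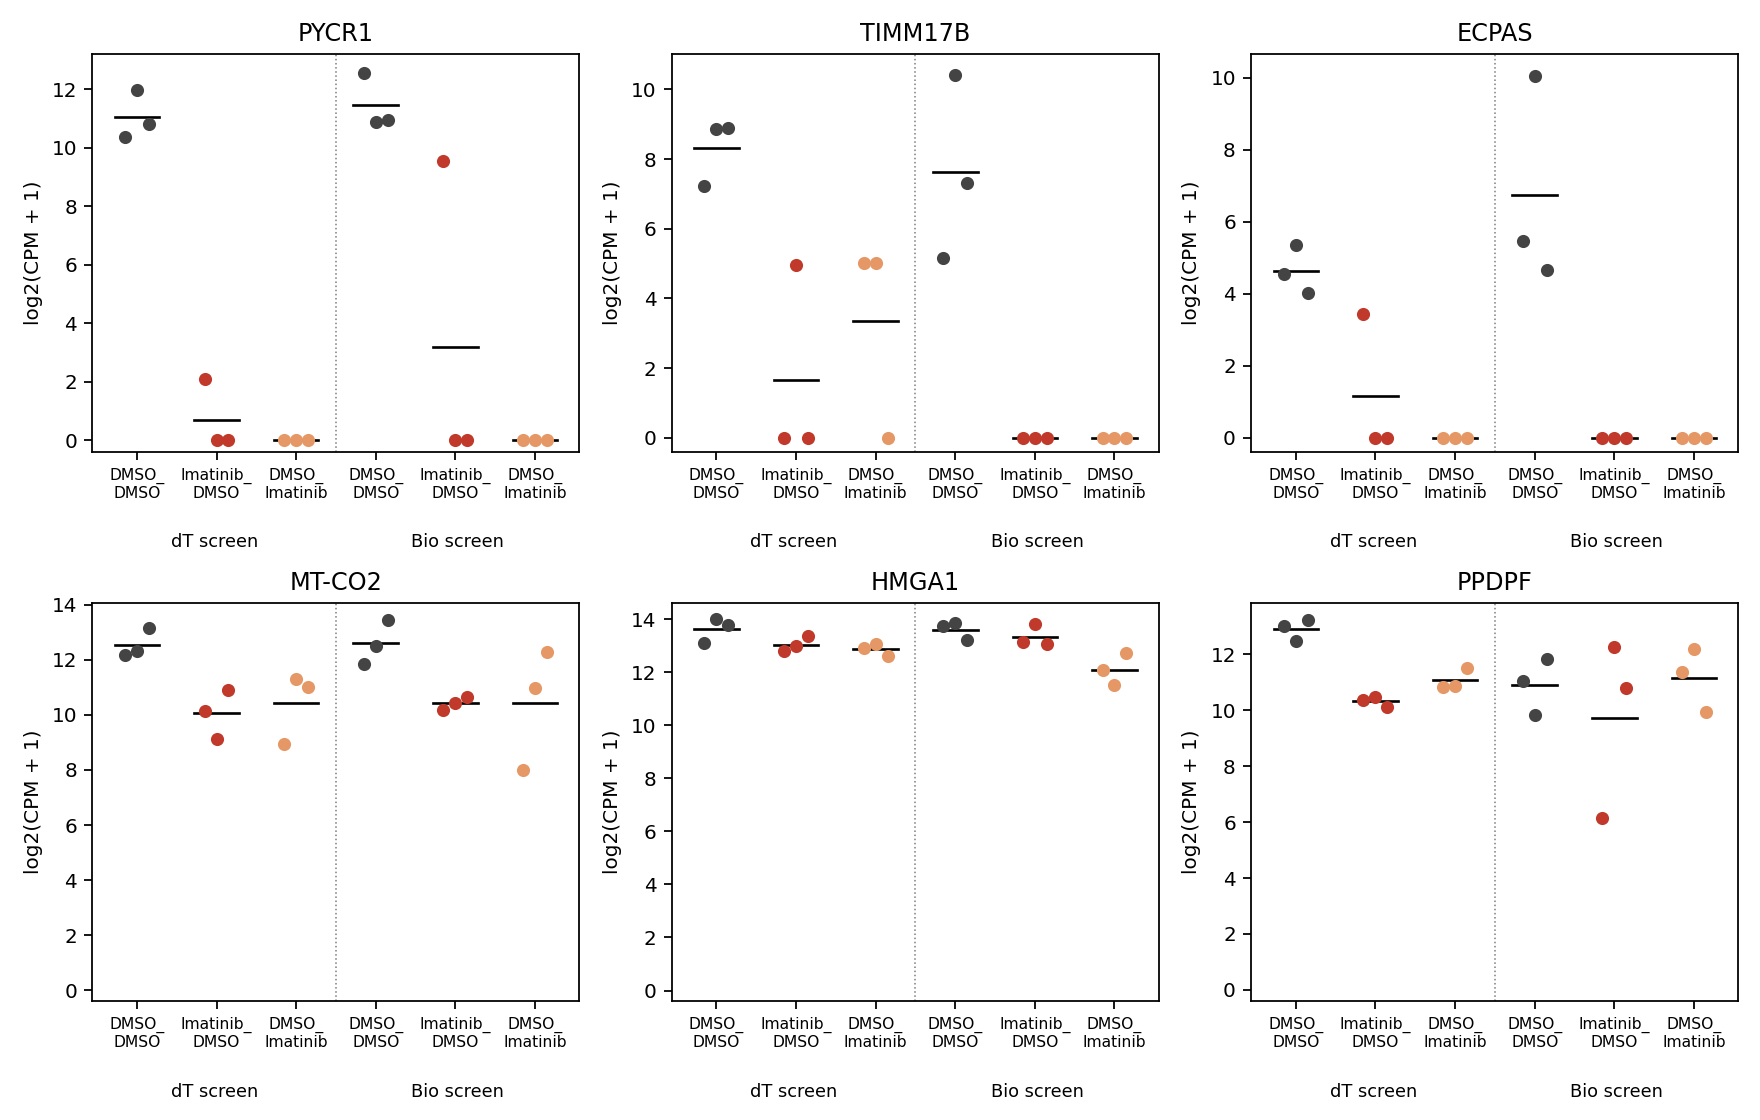
Level of 6 genes in each library as log2(CPM + 1), by label and screen; points are runs and lines are group means of the plotted values. PYCR1, TIMM17B and ECPAS show no overlap between DMSO_DMSO and imatinib libraries, MT-CO2 overlaps in 1 Bio library, HMGA1 overlaps in both screens and PPDPF separates in dT only.

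Across genes the pooled comparison asked which of the genes counted in at least 50% of the libraries differed with imatinib. It covered 1117 genes, which held 73.9% of the counts but were 9.79% of the genes with a count. By the quasi-likelihood test of edgeR, adjusted after Benjamini and Hochberg, and with a block for each run of each screen, 0 genes rose and 0 fell (0% called). At an unadjusted p under 0.05 there were 61 genes (5.46%), 43 higher and 18 lower with imatinib. DESeq2 called 29 of the 1117 (2.6%), 15 higher and 14 lower. With the 6 separate DMSO controls in place of DMSO_DMSO, a reference chosen after seeing the data, 493 of 2242 genes were called (22%), 475 of them lower and 18 higher, around a median difference of -2.53 over all genes tested. For another experiment the study describes such controls as handled apart from the treated droplets, and whether this holds for these 6 was not settled. Their depth differed too. In Bio 5 counts were 100.5 CPM in control 3 and 43.5 CPM in DMSO_DMSO run 1, so this control was shallower. In dT 27 counts were 103.6 CPM in control 1 and 149.7 CPM in DMSO_DMSO run 1, so this control was deeper. The part of depth in the 493 calls was not tested. The spread between libraries was wide, with a median standard error of 1.64 on the log2 scale over the genes tested and 0.84 over the 118 genes counted in every library. Of the nonzero values 29.4% were single counts, and 3 counts corresponded to between 9.67 and 36.7 CPM. For genes with errors of this size, smaller differences could not be told from 0. Abundant genes had smaller errors, such as 0.17 for the ribosomal gene RPL13 and 0.22 for HBG2.

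The smallest p-values belonged to lower genes. HMGA1P2, a processed pseudogene of HMGA1 on chromosome 4 (73098822 to 73099145, plus strand), had a fitted difference of -3.41 ± 0.69 (adjusted p = 0.0562), and DESeq2 called it (-3.52, adjusted p = 0.00377). It held few reads, with 1 to 17 counts in DMSO_DMSO and 0 to 3 in imatinib libraries. HMGA1P2 reached the filter through the DMSO_DMSO libraries, so these values are a description. HMGA1 itself, which encodes a chromatin protein that bends AT-rich DNA, was at 8898, 16379 and 14215 CPM in dT and 13866, 14764 and 9498 CPM in Bio DMSO_DMSO. With imatinib the 12 libraries ranged from 2921 to 14332 CPM, and the mean was lower in 6 of 6 runs (-0.63 ± 0.28, adjusted p = 0.827). Against the separate DMSO controls, where HMGA1 was at 1663 to 7554 CPM, the difference had the opposite sign (1.27 ± 0.54, adjusted p = 0.0777). Another pseudogene, HMGA1P8 on chromosome 2, was at 20.4 to 139.2 CPM in DMSO_DMSO against 0 to 34.5 CPM with imatinib (-2.39 ± 0.72, adjusted p = 0.557). Reads of HMGA1 and its copies can be split by the counting, so these values are not independent of each other.

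MT-CO2, the mitochondrially encoded subunit 2 of cytochrome c oxidase, was the lower gene with the smallest p among those counted in every library. It stood at 4607, 5162 and 9147 CPM in dT DMSO_DMSO and at 495.9 to 2501 CPM in the 6 dT imatinib libraries, with no overlap. In Bio the DMSO_DMSO values were 3723, 5797 and 11234 CPM and the imatinib values 257.3 to 4960 CPM, so that 1 imatinib library (second-listed, run 3) reached into the DMSO_DMSO range. The pooled difference was -1.97 ± 0.51 (adjusted p = 0.341), lower in 6 of 6 runs. When the test was limited to the 118 genes counted in every library, MT-CO2 passed (-2.18 ± 0.40, adjusted p = 0.00777), and it passed with DESeq2 (-2.11, adjusted p = 0.000255). The mitochondrial share of all counts was also lower with imatinib in dT, as given above, and its part in this result was not tested.

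The next lower genes by p among those counted in every library did not pass the threshold. They included PPDPF, a proliferation factor (-1.27 ± 0.69, adjusted p = 0.861), the splicing gene SRRM1 (-0.97 ± 0.75), the glycolytic GAPDH (-1.61 ± 1.26), RPS6 and RPS24 of the small ribosomal subunit (-0.55 ± 0.43 and -0.47 ± 0.38), and the ferritin pseudogene FTLP3 (-1.11 ± 0.88). The adjusted p of SRRM1 was 0.987 and those of GAPDH, RPS6, FTLP3 and RPS24 were 0.996 or more.

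Among higher genes counted in every library the smallest p belonged to RACK1, a scaffold on the small ribosomal subunit. It was at 6872 to 15379 CPM in DMSO_DMSO and at 6047 to 24548 CPM with imatinib, a difference of 0.56 ± 0.24 (adjusted p = 0.827). RPL3, a core protein of the large subunit, was at 305.6 to 2783 CPM and at 776.8 to 12513.5 CPM, and its imatinib mean was higher in 6 of 6 runs (1.47 ± 0.65). ENO1 (enolase, a glycolytic enzyme) was also higher in 6 of 6 runs, at 3036 to 7579 CPM against 3008 to 17427 CPM (0.86 ± 0.39). The ranges overlapped for all 3. RPS16 and RPL13, again ribosomal, differed by 0.64 ± 0.28 and 0.35 ± 0.17. MT-ND4, a subunit of respiratory complex I, differed by 1.92 ± 0.90, the actin binder PFN1 by 2.67 ± 1.26, and ERGIC3, a cargo receptor between endoplasmic reticulum and Golgi, by 3.66 ± 1.95. The adjusted p was 0.827 for each of these except ERGIC3, where it was 0.861.

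**Figure D3:**
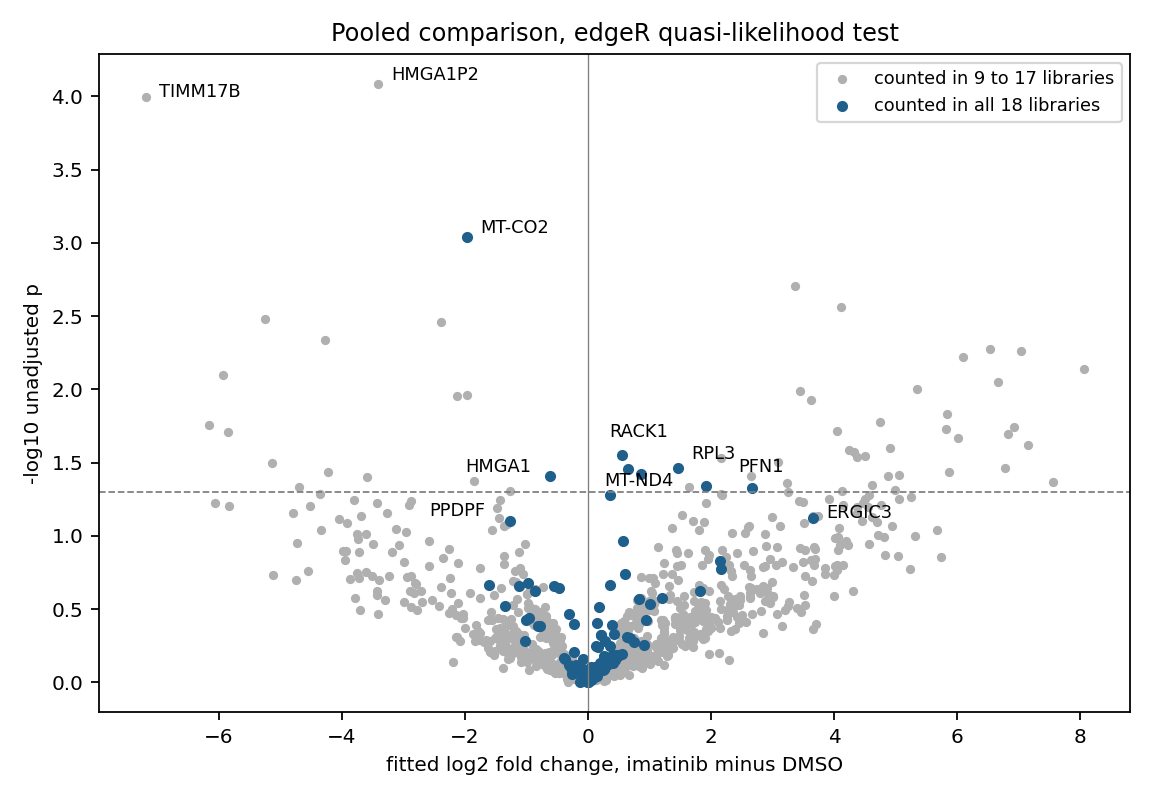
Fitted log2 fold change (imatinib minus DMSO, horizontal) against -log10 of the unadjusted p (vertical) from the edgeR fit across the 1117 genes of the pooled comparison; the dashed line marks the 0.05 level. TIMM17B, HMGA1P2 and MT-CO2 stand at the top on the lower side, and no gene passed the adjusted threshold.

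Each screen was also fitted alone. In dT 1740 genes were tested and 0 passed by edgeR's quasi-likelihood test (0%), with 104 at an unadjusted p under 0.05 (5.98%) and 54 called by DESeq2. In Bio 677 genes were tested and 0 passed (0%), with 39 at an unadjusted p under 0.05 (5.76%) and 31 called by DESeq2. In dT 52 of 9751 genes (0.533%) were lower in all 6 imatinib libraries than in the 3 of DMSO_DMSO and 11 were higher. In Bio these numbers were 20 of 6251 (0.32%) and 5. A gene lower in all needs a count in each DMSO_DMSO library, and a gene higher in all needs one in each of the more numerous imatinib libraries. The numbers of lower and higher genes are therefore not comparable.

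In dT the lower genes included PPDPF and MT-CO1. PPDPF stood at 8244, 5678 and 9525 CPM in DMSO_DMSO and at 1102 to 2894 CPM in the 6 imatinib libraries (-2.20 ± 0.46, unadjusted p = 0.000311, adjusted p = 0.540). In Bio it did not separate, with 909.6 to 3630.5 CPM against 69.9 to 4927 CPM (0.03 ± 1.56). MT-CO1, subunit 1 of cytochrome c oxidase, was at 19354, 20836 and 21748 CPM in dT DMSO_DMSO and at 8541 to 16956 CPM with imatinib (-0.81 ± 0.22, adjusted p = 0.814). In Bio its groups overlapped, at 6168 to 16735 CPM and 7158 to 20912 CPM.

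In Bio the lower genes included ATF4, the transcription factor that drives amino acid supply genes, which was chosen after its values were seen. It was at 922.1, 1174 and 1161 CPM in Bio DMSO_DMSO and at 861.2, 154.1, 12.3, 4.29, 0 and 0 CPM in the imatinib libraries (-4.12 ± 2.85, adjusted p = 1). In dT it was at 432.4, 625.1 and 458.9 CPM against 99.7 to 702.6 CPM, an overlap.

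Whether the imatinib effect differed between dT and Bio was tested by an interaction term. By edgeR's quasi-likelihood test 0 of 1117 genes passed (0%), with 67 at an unadjusted p under 0.05 and 76 called by DESeq2. The interaction for PPDPF was -2.14 (unadjusted p = 0.125) and that for MT-CO1 -1.22 (unadjusted p = 0.0136, adjusted p = 0.773), so the contrast between the screens for these genes did not pass.

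The genes that belong to the BCR-ABL route were mostly too sparse to test. Of the signalling chain 22 of 27 genes had a count and 5 were tested, of which 0 passed. Their median difference was -0.06, against 0.15 over all genes tested. Among those with the highest levels were MAP2K2, a kinase that trametinib inhibits (-1.05 ± 1.43), and YWHAZ, an adaptor of phosphorylated proteins (-0.06 ± 2.15). BCR was counted in 9 libraries, at 0 to 43.5 CPM in DMSO_DMSO and 0 to 1761 CPM with imatinib (-1.28 ± 1.76). ABL1 was counted in 8 libraries, at 0 to 1149 CPM and 0 to 148.3 CPM, and was not tested in the pooled comparison. In dT, where it was tested, it differed by 2.68 ± 1.81 (adjusted p = 0.949).

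Downstream of the kinase, 2 of 20 ERK target genes and 2 of 12 STAT5 target genes were tested and 0 passed in either list. MYC was at 826.0, 0 and 574.8 CPM in dT DMSO_DMSO and at 0 in all 3 of Bio, and at 0 to 452.0 CPM with imatinib (0.19 ± 1.50). JUN, an AP-1 factor, differed by 0.82 ± 2.78, the kinase PIM1 by 1.57 ± 2.67 and the cyclin CCND3 by 1.33 ± 2.03. IER2 and PIM2, the next most abundant targets, had a count in 2 libraries each. Of 20 apoptosis regulators 12 had a count and 0 were tested in the pooled comparison, and BAX, BAK1 and BBC3 were counted in 6, 6 and 7 libraries. In dT BAX was tested and differed by 3.90 ± 3.29 (adjusted p = 0.995).

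Erythroid genes lay on both sides of 0. Of 36 globin and erythroid genes 12 were tested, 0 passed, 7 were positive and 5 negative, and their median was 0.16. HBG2 differed by 0.13 ± 0.22, the iron store subunit FTL by -0.08 ± 0.32 and the biliverdin reductase BLVRB by 1.95 ± 1.28. Of the 12 marker genes of K562 4 were tested with a median of -0.42, among them HBZ (-0.05 ± 1.94) and GATA1 (-0.78 ± 2.28). Of 14 megakaryocyte and myeloid genes 2 had a count and RUNX1 was the 1 tested (1.07 ± 2.53), while ITGA2B had a count in 1 library and MPO in 0.

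Of 28 amino acid supply and ATF4 genes, 7 were tested and 0 passed; 6 were positive and 1, ATF4, was negative, with a median of 1.58. PYCR1 belongs to this list and was not among the tested members. SLC3A2, a chain of amino acid transporters, differed by 3.62 ± 2.39 and TRIB3, a pseudokinase that ATF4 induces, by 1.37 ± 1.95. Of 26 MYC and ribosome-making genes 6 were tested with 0 passing and a median of -0.07. They included the nucleolar NCL (-3.94 ± 2.62), BOP1 of ribosome assembly (-4.56 ± 3.23) and the polyamine enzyme SRM (0.20 ± 1.11).

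For ribosomal proteins, the best covered groups, 32 of 47 large and 29 of 33 small subunit genes were tested and 0 passed. The medians were 0.17 and -0.07. At high levels the differences of 2 members were no larger than their errors, with RPL31 at 0.15 ± 0.17 and RPS15 at 0.04 ± 0.19. RPL3 of the large subunit and RACK1 and RPS16 of the small subunit were higher at an unadjusted p under 0.05, and 0 were lower. Over all genes tested 5.46% lay under that level in either direction, and nothing is read from these 3 genes. Of 31 translation factors 12 were tested, 0 passed and the median was 0.82, with EEF2 at -0.26 ± 1.18, TPT1 at -0.36 ± 1.12 and EIF3D at 2.95 ± 2.71.

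Of the 15 mitochondrially encoded genes listed 11 were tested, 0 passed, 5 were positive and 6 negative, and the median was -0.22. MT-CO2 was lower and MT-ND4 higher at an unadjusted p under 0.05, while MT-CO1 differed by -0.22 ± 0.26, MT-CO3 by 0.16 ± 0.28 and MT-ND1 by 0.05 ± 0.33.

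In the remaining lists 0 members passed. Of 18 glycolysis enzymes 8 were tested with a median of 0.47, including TPI1 (0.68 ± 0.99) and HK1 (1.96 ± 1.61). Of 35 proliferation genes 9 were tested with a median of 0.69, including HMGB2 (1.81 ± 1.42), STMN1 (1.53 ± 2.49) and MCM7 (0.25 ± 1.83). Metallothioneins, which bind zinc and copper, gave 5 of 8 tested and a median of 0.17, with MT2A at 0.17 ± 0.17, MT1X at 0.56 ± 0.34 and MT1G at -0.11 ± 0.81. Cytoskeleton genes gave 9 of 22 and a median of 0.69, with MYL6 at -0.23 ± 0.79 and ACTG1 at -1.48 ± 2.07 beside PFN1. Chaperones and stress genes gave 10 of 30 and a median of 0.72, with HSP90AB1 at -0.04 ± 1.00, HSPE1 at 1.96 ± 1.26 and HSPA5 at 0.69 ± 1.48.

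**Figure D4:**
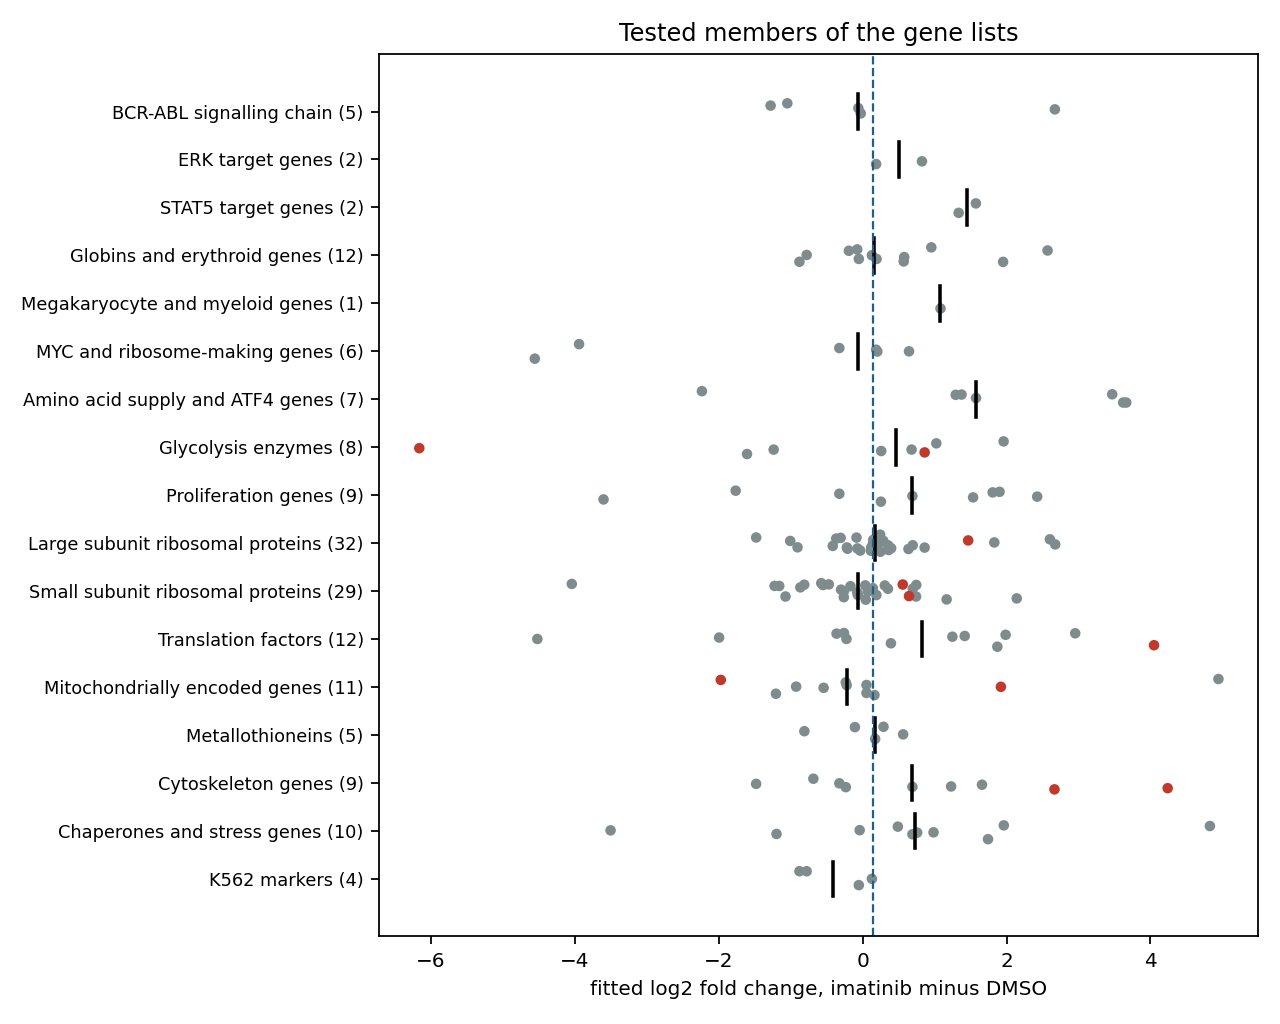
Fitted log2 fold change (imatinib minus DMSO) of each tested member of 17 gene lists, with the number tested in brackets; black bars are list medians, red points have an unadjusted p under 0.05 and the dashed line is the median of 0.15 over all 1117 genes. The members of each list lie on both sides of 0 except in the lists with 1 or 2 tested members, and no member passed the adjusted threshold.

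To ask whether the label order mattered, imatinib first-listed was compared with imatinib second-listed. By edgeR's quasi-likelihood test 1 of 1117 genes passed (0.0895%). This was NDUFS8, a subunit of respiratory complex I, with 8731, 8613 and 11406 CPM in dT and 3567, 7920.2 and 4593 CPM in Bio when imatinib was first-listed. When imatinib was second-listed it was at 0, 0 and 3.69 CPM in dT and at 21.4, 10.1 and 12.4 CPM in Bio. The groups did not overlap (first minus second 9.95 ± 1.63, adjusted p = 0.00685). The call was lost without run 1 of dT (adjusted p = 0.0664) and without run 3 of dT (adjusted p = 0.0676). DMSO_DMSO libraries lay between the orders in dT, at 870.4, 2019 and 489.1 CPM, and spread from 0 to 5106 CPM in Bio. ZFP36L1, which speeds mRNA decay and was chosen after its values were seen, was at 394.5 to 2717 CPM in the 6 first-listed and 0 to 15.7 CPM in the 6 second-listed libraries (8.98, adjusted p = 0.156). It reached the filter through the first-listed libraries, so this value is a description.

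Imatinib was last set against the other single drugs of the series, trametinib (a MEK inhibitor, 11 libraries that passed the filter) and YM115 (the label's name, 12 libraries), each with DMSO. The DMSO_DMSO libraries were part of the fit and of its gene filter, while the contrast itself sets only the drugs against each other. By edgeR's quasi-likelihood test 3 of 1175 genes passed (0.255%). ECPAS was lower with imatinib (-5.35 ± 0.98, adjusted p = 0.00349). It had a count in 11 of 11 trametinib libraries (16.8 to 155.2 CPM) and in 11 of 12 YM115 libraries (0 to 1203 CPM), against 1 of 12 imatinib libraries. It reached the filter of this contrast through the trametinib and YM115 libraries, so the fitted value and its p are a description. The call was lost without run 2 of dT (adjusted p = 0.0551) and without run 3 of Bio (adjusted p = 0.0821). TRMT2A, a tRNA methyltransferase, was lower (-5.82 ± 1.35, adjusted p = 0.0414), with a count in 3 of 12 imatinib, 7 of 11 trametinib and 10 of 12 YM115 libraries, through which it also reached the filter. In DMSO_DMSO it was counted in 4 of 6 libraries, at 0 to 20.2 CPM. Of the 27 libraries that passed the filter and paired imatinib with imatinib, trametinib or YM115, 17 had a count, at 0 to 1176.8 CPM. None of these was an Imatinib_Imatinib library of Bio, as those had under 1000 detected genes. RPL3 was higher (2.11 ± 0.49, adjusted p = 0.0414), with a median of 3273 CPM for imatinib, 1498 CPM for trametinib and 984.8 CPM for YM115, and 1647 CPM in those 27 libraries. The TRMT2A call held without run 3 of dT (adjusted p = 0.0383) and was lost when any other run was left out (0.0895 to 0.165), and the RPL3 call was lost when any 1 run was left out (0.065 to 0.165).

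PYCR1 was in this contrast and did not pass (-7.28 ± 2.23, adjusted p = 0.169). It had a count in 8 of 11 trametinib libraries (0 to 4694 CPM), 6 of 12 YM115 libraries (0 to 2099.6 CPM) and 6 of 6 DMSO_DMSO libraries. PYCR1 reached the filter of this fit through these groups, so the value of -7.28 and its p are a description. With trametinib or YM115 first-listed it was at 0 to 685.5 CPM, below every DMSO_DMSO library. Without run 1 of Bio, the run of the imatinib library with 182 counts, the value was -8.98 and the adjusted p 0.0298, again a description for the same reason. In the 6 separate DMSO controls PYCR1 was at 210.4 to 951.3 CPM and ECPAS at 67.2 to 307.8 CPM, with a count in 6 of 6 for both. In the same 27 paired libraries, all with at least 1000 detected genes, PYCR1 had a count in 5 and ECPAS in 6.

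For other genes with lower levels than in DMSO_DMSO the contrast with the other drugs did not pass. MT-CO2 had medians of 5479 CPM in DMSO_DMSO, 1497 CPM with imatinib, 2168 CPM with trametinib and 2189.9 CPM with YM115, and the contrast was -0.64 ± 0.40 (adjusted p = 0.929). HMGA1 had medians of 14040.5 CPM in DMSO_DMSO, 7911 CPM with imatinib, 7324 CPM with trametinib, 5679 CPM with YM115 and 2325 CPM in the separate DMSO controls, and the contrast with the other drugs was 0.31 ± 0.15 (adjusted p = 0.848). TIMM17B did not pass either (-3.82 ± 1.44, adjusted p = 0.391).

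**Figure D5:**
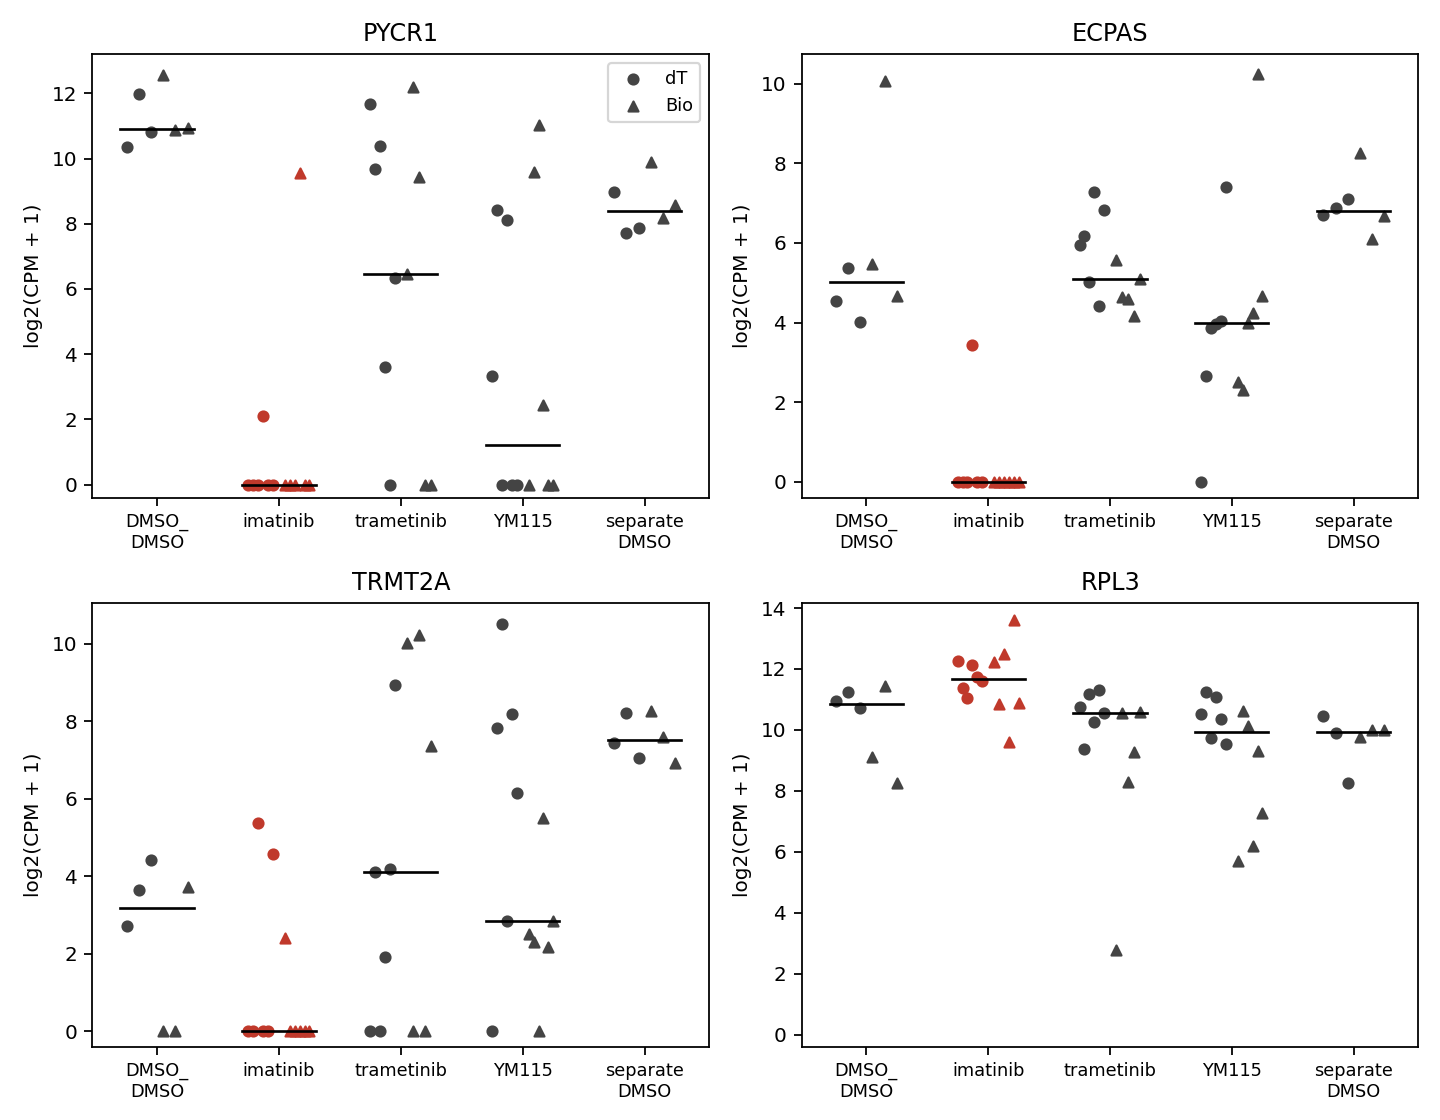
Level of PYCR1, ECPAS, TRMT2A and RPL3 as log2(CPM + 1) in each library of DMSO_DMSO, imatinib, trametinib and YM115 with DMSO, and the separate DMSO controls; circles are dT, triangles are Bio and lines are medians. ECPAS is at 0 in 11 of 12 imatinib libraries and in 1 library of the other groups shown, and PYCR1 is at 0 in 10 of 12.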

How the data were processed

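The authors demultiplexed treatments on the barcodes of read 1 and deposited whole-number read counts per gene, unnormalised. The submitters' processing notes name STAR 2.4.2a and GRCh38. Annotation, strand setting and any collapsing of duplicate reads are not given in the sources used here, so limits from counts cover counting error only. The table held 24965 genes, with 0 entries naming no gene and 0 columns of other samples. Symbols were matched for 24539 genes, and coordinates for 24646 (GENCODE 29, GRCh38).

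Depth was 81806 to 310265 counts per library in the 18 libraries of the main comparison, a range that does not cover the separate DMSO controls. CPM are counts divided by the library total. Libraries with under 1000 detected genes were dropped, and genes counted in at least 50% of the libraries used were tested with edgeR 4.0.16 in R 4.3.3 (TMM, glmQLFit, glmQLFTest, Benjamini-Hochberg, threshold 0.05) with a block per run and screen, because libraries of a run share a run number in the labels and the study treats replicates as a batch. The pairing comes from the run number. For the separate DMSO controls, whose labels name no run, the number in the label was used in its place. The filter on detected genes was not applied to these controls. Across genes, deviations from group means had a mean r of 0.024 for libraries sharing a run (lowest -0.0243, 0 of 18 pairs over 0.1). DESeq2 1.42.0 was an alternative. Replicates were compared in 18 pairs, of which 0 were identical (lowest chi-square per degree of freedom 56.7). The code of the fits was tried on simulated counts drawn without run or screen effects, and nothing is read from this about these data. Library measures were tested with exact permutations within runs. Python 3.11.15 was used.

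Named genes were up to 10 per direction past the threshold and, where fewer passed, up to 8 per direction with a count in every library and the smallest p, up to 5 per direction past the threshold in each screen, the 3 most abundant members of each of 19 lists, and BCR, ABL1, PYCR1 and MYC. Some genes that this rule names are not reported here. Another 9 genes of the report were named after their values were seen. The libraries, lists and tests were chosen with earlier results of these data known. Alternatives were other scalings, filters, reference libraries and label orders, no block, thinned counts and each run left out. The separate DMSO controls as a reference were added after seeing the data.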

Additional observations from a re-analysis of the deposited data

Results flagged for a closer look

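In groups of 6 libraries (imatinib in dT, imatinib in Bio, and DMSO_DMSO of both screens) the highest and lowest values of 69 sets were compared with Dixon's criterion at 95%. It flags about 1 set in 20 by chance where values are normally distributed, which sparse counts are not. The sets were the 3 library measures and the levels of 20 genes. The criterion marked 12 sets, all of genes. Low values stood apart for RACK1 (8690.0 CPM), RPL13 (18239 CPM) and ERGIC3 (12.9 CPM) in dT imatinib, and for MT-ND4 (8.58 CPM), PFN1 (4.29 CPM) and SRRM1 (48.9 CPM) in Bio imatinib. High values stood apart for BCR in dT imatinib (187.4 CPM) and Bio imatinib (1761 CPM), for ECPAS in dT imatinib (9.86 CPM) and DMSO_DMSO (1065.7 CPM), and for ABL1 in Bio imatinib (4.29 CPM) and DMSO_DMSO (1149 CPM). The MT-ND4 and PFN1 values came from the same library, run 1 of Bio with imatinib second-listed.

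NDUFS8 differed between the label orders by 9.95 on the log2 scale, as tested by edgeR (adjusted p = 0.00685), and did so in 3 of 3 runs of each screen. ECPAS (-5.35), TRMT2A (-5.82) and RPL3 (2.11) differed between imatinib and the mean of trametinib and YM115 by the edgeR contrast. ECPAS and TRMT2A reached the filter of that contrast through the trametinib and YM115 libraries, so their values are a description.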

How the results depend on the processing

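The pooled count of 0 called genes stayed at 0 by edgeR with DESeq2's size factors, with thinned counts, without the replicate block and with any 1 run left out (range 0 to 0). It was 29 with DESeq2, 1 under filterByExpr (PYCR1), 1 without a gene filter (PYCR1), 1 over genes counted in every library (MT-CO2), 2 with first-listed (PYCR1 and WDR1, the latter named after its values were seen) and 1 with second-listed libraries alone (PYCR1). PYCR1 entered these fits by its DMSO_DMSO counts, so these calls are a description. With the separate DMSO controls it was 493, and 1874 with filterByExpr, both chosen after seeing the data. In dT the 0 became 54 with DESeq2, 1 without a gene filter, 1 under filterByExpr, 13 first-listed, 1 second-listed and 0 to 1 with a run left out. In Bio it became 31 with DESeq2, 1 first-listed, 1 second-listed and 0 to 0 with a run left out. The interaction count of 0 became 76 with DESeq2 and 1 with second-listed libraries, and was 0 to 0 with a run left out. The label order count of 1 became 80 with DESeq2, 3 without the replicate block, 0 over genes counted in every library, where NDUFS8 is not tested, and 0 to 1 with a run left out. The count of 3 against other single drugs (1 higher, 2 lower) became 41 with DESeq2 (26 higher, 15 lower), 10 with DESeq2's size factors (5 and 5), 19 without a gene filter (11 and 8), 20 under filterByExpr (15 and 5), 2 over genes counted in every library (2 and 0), 1 without the replicate block (ECPAS), 1 with all libraries kept (ECPAS), 1 with thinned counts (RPL3) and 0 to 4 with a run left out. With a run left out the difference in log2 total counts was 0.469 to 0.655, in detected genes 77.4 to 230.5 and in mitochondrial percent -1.21 to -0.726. Without run 2 of Bio total counts and mitochondrial percent passed after adjustment (0.0309 for both). The causes were not tested.

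None of the named genes was called in the pooled comparison, and some fitted log2 differences changed sign. Without the replicate block these were YWHAZ (0.34), MYC (-1.04), MCM7 (-0.48), EEF2 (0.12), MYL6 (0.25), HSP90AB1 (0.19), GATA1 (1.83) and BCR (2.65). Without a gene filter these were YWHAZ (0.012), FTL (0.0027), HSP90AB1 (0.049) and HBZ (0.017). With thinned counts these were YWHAZ (0.43), MYC (-0.17), HBG2 (-0.086), MCM7 (-0.16), RPL31 (-0.056), RPS15 (-0.16), MT-CO3 (-0.056), MT-ND1 (-0.22) and MT2A (-0.029). With first-listed libraries alone these were YWHAZ (0.62), JUN (-0.62), TRIB3 (-1.15), EEF2 (0.31), HSP90AB1 (0.39), HSPA5 (-2.45), HBZ (0.20) and BCR (0.46). With second-listed libraries alone these were MYC (-0.44), CCND3 (-0.87), FTL (0.16), RPL31 (-0.072), RPS15 (-0.033), EEF2 (0.56), TPT1 (0.13), EIF3D (-0.097), MT-ND1 (-0.0067), MT1G (0.11) and MYL6 (0.29). With DESeq2's size factors in edgeR these were HBG2 (-0.00010), RPS15 (-0.098) and MT-ND1 (-0.075). Over genes counted in every library these were HBG2 (-0.063), RPL31 (-0.039), RPS15 (-0.17), MT-CO3 (-0.035), MT-ND1 (-0.15) and MT2A (-0.021). With DESeq2 these were RPS15 (-0.098) and MT-ND1 (-0.074). With a run left out, the values that included the other sign ranged over YWHAZ (-0.77 to 1.11), JUN (-0.36 to 2.77), MYC (-1.17 to 2.72), HBG2 (-0.017 to 0.26), SRM (-0.36 to 0.86), MCM7 (-0.39 to 1.50), RPS15 (-0.040 to 0.12), EEF2 (-0.89 to 0.79), TPT1 (-0.75 to 0.19), MT-CO3 (-0.12 to 0.29), MT-ND1 (-0.099 to 0.18), MT1G (-0.30 to 0.21), MYL6 (-0.73 to 0.55), HSP90AB1 (-0.44 to 0.32), HBZ (-0.79 to 1.06), GATA1 (-1.78 to 0.80) and BCR (-1.47 to 0.20). Another 697 values of named genes kept their sign and side of the threshold, and MT-CO2 passed in 2 pooled settings with DMSO_DMSO as the reference (-2.11 and -2.18). With the separate DMSO controls as the reference, with and without filterByExpr, MT-CO2 passed (-2.44 and -2.47) and HMGA1 changed sign without passing (1.24 and 1.27). The medians over all genes tested in these fits were -4.11 and -2.53. MT-CO2 was thus not lower than the median gene there, and nothing is read from its passing. No library of the pooled, screen or order comparisons fell under the filter, so keeping all libraries left these unchanged. Depth limits the sparse genes: 3 counts were between 9.67 and 36.7 CPM.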
